A study of Homo sapiens with 6 samples.

Results

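The HOX cluster genes and the RNAs transcribed within their clusters made up 54 of the 26334 genes in the count table of MCF10DCIS.com cells. Members were taken by symbol: 43 carried HOX, a cluster letter and a paralogue number, 8 were antisense RNAs named for a whole cluster (HOXA-AS2, HOXB-AS1 and the like), and HOTAIR, HOTAIRM1 and HOTTIP were the other 3. By kind, 39 were protein-coding genes, 14 were antisense or intergenic RNAs and 1 was the read-through gene HOXA10-HOXA9. By cluster, 18 lay in HOXA on chromosome 7, 12 in HOXB on chromosome 17, 14 in HOXC on chromosome 12 and 10 in HOXD on chromosome 2. The rule itself used symbols and no measured value.

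MCF10DCIS.com is a human breast cancer cell line of the MCF10A lineage that forms lesions resembling ductal carcinoma in situ in mice. The study silenced WDR5 in it with the vector pRSI-U6-shWDR5-UbiC-TagRFP-2A-Puro and compared these cells with a control that carried pRSI-U6-shLuc-UbiC-TagRFP-2A-Puro, the same vector with a neutral hairpin. Both groups were grown in DMEM/F12 with 5% horse serum and selected with 3 µg/ml of puromycin, and each gave 3 poly-A-selected RNA-seq libraries (shLuc and shWDR5, n = 3 each). Per the study, the WDR5 hairpins were transduced as a pool, so each library is a selected bulk population and not a clone, and a hairpin's effect cannot be told apart from that of the pool. The labels do not say that the libraries of a group came from separate cultures, so the p-values measure the spread between these libraries, which may be technical.

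HOX genes encode homeodomain transcription factors that set position along the body axis, and their order along each cluster follows the order in which they are used, with low paralogue numbers in anterior and high numbers in posterior parts. The clusters also hold RNAs such as HOTAIR, which binds Polycomb proteins, and HOTTIP, which binds WDR5 and guides MLL methyltransferases to the 5′ end of HOXA. WDR5 is a core subunit that lets the MLL/SET1 enzymes methylate lysine 4 of histone H3, and HOX genes are the textbook targets of these enzymes.

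WDR5 itself, the silenced gene, was read first. Its level was 52.6, 48.5 and 51.3 CPM (counts per 1000000 counts, on totals scaled by edgeR's TMM factors) in the shLuc libraries and 23.4, 24.4 and 20.8 CPM in the shWDR5 libraries. The groups were far apart, with a log2 fold change of -1.15 ± 0.07 (SE, edgeR quasi-likelihood adjusted p = 1.86e-07), so that 0.450 of the control level remained. The libraries held 38218108 to 57640167 counts, of which the 54 HOX members took 0.0125% to 0.0138%. The silencing moved a large part of the transcriptome: 9103 of 16117 genes tested, or 56.5%, passed an adjusted p of 0.05, with 4292 (26.6%) higher and 4811 (29.9%) lower in shWDR5, and a median log2 fold change over all genes of -0.01. The labelled cell type was checked on marker genes. All 7 basal epithelial markers (KRT5, KRT14, KRT6A, KRT17, TP63, ITGB4, LAMB3) were higher in shWDR5, with a summed level of 9100 to 10500 CPM in shLuc and 15400 to 17800 CPM in shWDR5. Of 4 general epithelial markers, EPCAM and CDH1 were lower and KRT8 and KRT18 were not called, the sum being 4090 to 4290 CPM against 3680 to 3960 CPM. Fibroblast markers summed to 0.743 to 1.21 CPM in shLuc and 0.633 to 0.648 CPM in shWDR5 with LUM at 0 throughout, and immune markers to 10.5 to 13 against 10.4 to 12.4 CPM, nearly all of it CD68, with CD3E at 0. Endothelial markers summed to 7.58 to 7.93 CPM in shLuc and 4.71 to 5.36 CPM in shWDR5, with PECAM1 lower, CDH5 not called and VWF too low to test. The part of these marker changes in the HOX results was not tested, and in bulk RNA fewer cells with a transcript and less of it per cell cannot be told apart.

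Of the 54 members, 31 had enough counts to test, and in 23 the counts were too low. Among the 31, 2 rose in shWDR5 (HOXC13-AS and HOXC9) and 7 fell (HOXB6, HOXA7, HOXC10, HOXC6, HOXA11, HOTAIR and HOXB2), by edgeR's quasi-likelihood test with Benjamini-Hochberg adjustment over all 16117 genes. That is 29.0% of the members tested, where 56.5% of all genes tested passed. The median log2 fold change of the tested members was -0.06, with a range from -1.31 for HOXB6 to 1.05 for HOXC13-AS, and 17 lay below 0 and 14 above. In 12 of the 31 every shWDR5 library lay on the same side of every shLuc library, where 62.3% of all genes tested did so. Level bears on such counts, since low genes pass less often: below a mean of 1 CPM, 1 of 10 members was called (32.5% of all genes in that range), from 1 to 10 CPM 8 of 18 (55.8%), and from 10 to 30 CPM 0 of 3 (62.8%). The plot of fold change against level shows the members spread over the lower part of the range of levels.

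**Figure D1:**
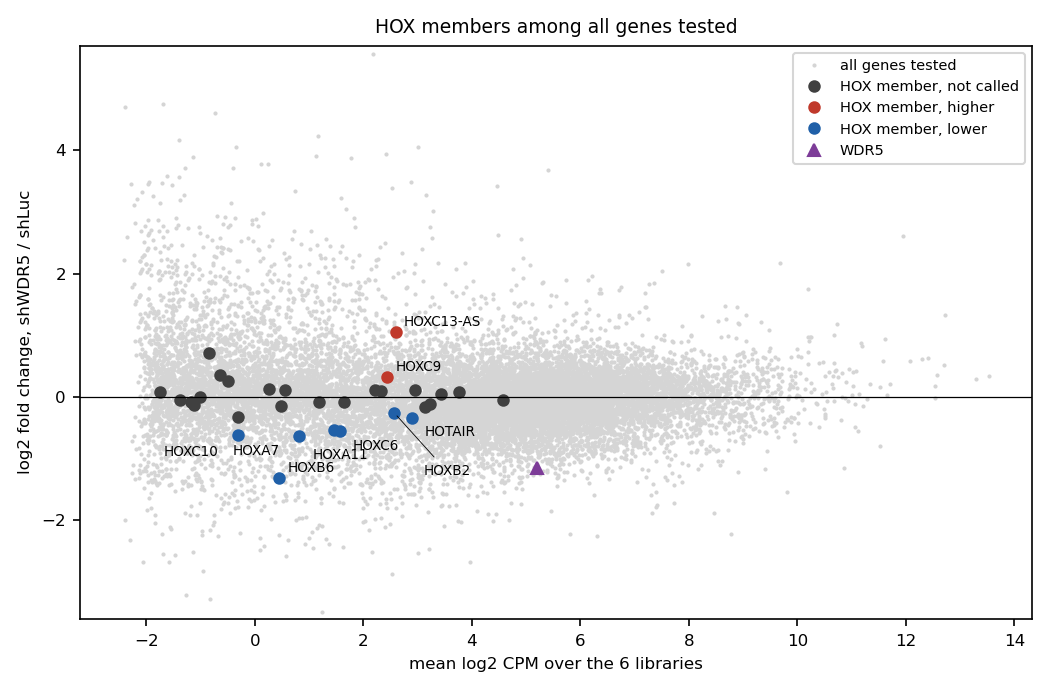
Log2 fold change of shWDR5 over shLuc (y axis) against mean log2 CPM over the 6 libraries (x axis) for all 16117 genes tested (grey), with the 31 tested HOX members as large points and WDR5 as a triangle. The members lie between -1.31 and 1.05, and the 9 called members are coloured and named.

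The member that fell furthest was HOXB6, a central homeodomain gene of the HOXB cluster. Its level was 1.90, 2.01 and 1.91 CPM in shLuc and 0.885, 0.845 and 0.596 CPM in shWDR5. Every shWDR5 library was below every control by a wide margin, and the log2 fold change was -1.31 ± 0.17 (95% interval -1.68 to -0.95, edgeR quasi-likelihood adjusted p = 3.93e-05). HOXB6 spans chr17:46673099-46682334 on the minus strand of hg19 in 4 annotated exons, and 166 of its 1676 exonic bases are also exon of the opposite-strand HOXB-AS3, which had at most 1 count in any library. Among the other HOXB genes, HOXB2, a hindbrain patterning gene at the anterior end and the member with the highest RPKM in the cluster, gave 6.40, 6.58 and 6.32 CPM in shLuc and 4.99, 5.88 and 5.25 CPM in shWDR5. The groups did not overlap, but the difference was small (log2 fold change -0.26 ± 0.09, edgeR quasi-likelihood adjusted p = 0.0331). Its call was lost with each shLuc library left out in turn (adjusted p = 0.0755, 0.0841 and 0.0640 without replicates 1, 2 and 3), without shWDR5 replicate 1 (0.105) or 3 (0.0899), and with DESeq2 (0.107). HOXB3, another hindbrain gene beside it, was not called (9.94, 12 and 9.86 against 11.0, 10.6 and 11.3 CPM, log2 fold change 0.05, 95% interval -0.14 to 0.25). HOXB-AS1, the RNA opposite HOXB3, had a log2 fold change of 0.13 (-0.23 to 0.49) and HOXB9, a posterior gene near the limit of counting at 0.243 CPM, one of 0.08 (-0.88 to 1.05), and neither was called.

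In the HOXA cluster the called genes were HOXA7 and HOXA11, and both fell. HOXA7, a central gene, gave 2.1, 1.68 and 2.58 CPM in shLuc and 1.53, 1.18 and 1.41 CPM in shWDR5. The highest shWDR5 library lay just below the lowest control, and the log2 fold change was -0.64 ± 0.18 (edgeR quasi-likelihood adjusted p = 0.00857). HOXA11, a posterior gene used in limb and uterine patterning, gave 3.38, 2.79 and 3.47 CPM in shLuc and 2.07, 2.39 and 2.21 CPM in shWDR5. Its groups were apart as well, with a log2 fold change of -0.53 ± 0.13 (edgeR quasi-likelihood adjusted p = 0.00339). HOXA7 lies at chr7:27193338-27196296 and HOXA11 at chr7:27220776-27224835, both on the minus strand of hg19 with 2 exons each.

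Their promoter windows are shown because they are the only 2 of the 9 called members with a window in the RefSeq table used here (GRCh38.p14, 250 bases before to 50 after the annotated start, a different build from the count table). The HOXA7 window is chr7:27156626-27156925 and the HOXA11 window is chr7:27185183-27185482, both read on the minus strand. Capitals mark matches to the E-box CACGTG and, on the opposite strand, to the CCAAT box (ATTGG as printed).
HOXA7: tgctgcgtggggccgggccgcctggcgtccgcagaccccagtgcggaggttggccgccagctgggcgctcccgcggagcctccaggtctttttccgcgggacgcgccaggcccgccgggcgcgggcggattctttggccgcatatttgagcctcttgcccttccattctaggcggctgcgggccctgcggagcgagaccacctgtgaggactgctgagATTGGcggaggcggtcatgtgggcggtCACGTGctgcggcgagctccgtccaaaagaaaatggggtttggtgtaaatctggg
HOXA11: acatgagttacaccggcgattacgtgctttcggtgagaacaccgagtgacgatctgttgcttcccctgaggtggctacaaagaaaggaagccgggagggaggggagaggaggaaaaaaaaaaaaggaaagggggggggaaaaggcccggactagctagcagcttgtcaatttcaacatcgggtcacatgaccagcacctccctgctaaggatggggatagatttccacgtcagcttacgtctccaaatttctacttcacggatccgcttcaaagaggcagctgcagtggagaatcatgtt
The HOXA7 window held 31 CpG and the HOXA11 window 13, against a median of 14 over all 35116 windows of the table. In the HOXA7 window the E-box took bases 246 to 251, at the annotated start, and the reversed CCAAT box bases 219 to 223. The HOXA11 window held neither, nor TATAAA, on either strand, and 275 of its bases are also the window of HOXA11-AS, whose start lies 176 bases away on the other strand. Over the 35 windows that matched 28 of the members, CACGTG occurred in 25.7% (7.26% of all windows), CCAAT or ATTGG in 62.9% (34.6%) and TATAAA or its reverse TTTATA in 14.3% (11.5%). CACGTG was in 19.0% of the 21 windows of tested members and 35.7% of the 14 of members too low to test. Of the 8 windows of HOXD coding genes, none of them tested, 5 held it. CCAAT or ATTGG was in 52.4% of the windows of tested members and 78.6% of the others. Several windows of the members are alternative starts of the same gene or share bases, so they are not independent, and a match of letters is not a measured site.

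The rest of the HOXA cluster did not pass the test. HOXA5, a central gene with roles in lung and mammary development and the HOXA member with the highest RPKM, was close to level, with groups just apart, at 13.2, 12.7 and 13.3 CPM in shLuc and 13.7, 13.4 and 14.5 CPM in shWDR5 (log2 fold change 0.09, 95% interval -0.07 to 0.24). The anterior genes HOXA2 and HOXA3 gave log2 fold changes of 0.11 (-0.22 to 0.44) and -0.12 (-0.32 to 0.08). HOXA9, the HOX gene best known as an MLL target in leukaemia, gave 2.45, 1.83 and 2.55 CPM in shLuc and 2.25, 2.11 and 2.14 CPM in shWDR5, overlapping ranges with a log2 fold change of -0.08 (-0.39 to 0.23). HOXA10, its posterior neighbour, was at -0.08 (-0.42 to 0.25) and HOXA4 at -0.14 (-0.52 to 0.24). HOXA6 had all its shWDR5 libraries (0.734, 0.686 and 0.618 CPM) below its controls (0.850, 0.748 and 0.967 CPM), with a log2 fold change of -0.33 whose interval ran from -0.75 to 0.09.

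The HOXC cluster held the rises. HOXC13-AS, transcribed opposite to the start of HOXC13, gave 3.54, 3.97 and 4.14 CPM in shLuc and 8.42, 6.79 and 8.95 CPM in shWDR5. The lowest shWDR5 library was well above the highest control, and the level was 2.07 times that of shLuc (log2 fold change 1.05 ± 0.12, 95% interval 0.79 to 1.31, edgeR quasi-likelihood adjusted p = 1.58e-05). HOXC13-AS lies at chr12:54329112-54333427 on the minus strand of hg19 in 3 exons, and 172 of its 1408 exonic bases are also exon of HOXC13. HOXC13 itself, a regulator of hair and nail keratins and the highest of all members, was at 24.9, 23.2 and 24.5 CPM in shLuc and 24.4, 22.0 and 24.0 CPM in shWDR5. Its ranges overlapped, with a log2 fold change of -0.04 (95% interval -0.20 to 0.11). HOXC9, a posterior gene that represses brachial programmes in the spinal cord, gave 4.76, 4.26 and 5.18 CPM in shLuc and 6.39, 5.35 and 6.13 CPM in shWDR5. The groups did not overlap, and it rose by 0.33 ± 0.11 on the log2 scale (edgeR quasi-likelihood adjusted p = 0.0206), a call lost without shLuc replicate 2 (0.25, adjusted p = 0.0886) and without shWDR5 replicate 1 (0.27, 0.0699) or 3 (0.31, 0.0606).

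Other HOXC members fell. HOXC6, a central gene expressed in mammary tissue, gave 2.85, 4.13 and 3.64 CPM in shLuc and 2.40, 2.46 and 2.34 CPM in shWDR5. The shWDR5 libraries lay close together below all controls, with a log2 fold change of -0.55 ± 0.14 (edgeR quasi-likelihood adjusted p = 0.00539). The Polycomb-binding RNA HOTAIR starts within the span of HOXC11, on the other strand. HOTAIR gave 7.85, 9.0 and 8.0 CPM in shLuc and 6.54, 6.02 and 7.17 CPM in shWDR5. It too was lower in every shWDR5 library, by -0.33 ± 0.10 on the log2 scale (edgeR quasi-likelihood adjusted p = 0.0103), and its call was lost without shWDR5 replicate 2 (-0.27, adjusted p = 0.0560). HOXC10, a posterior gene of the lumbar region, gave 0.992, 1.13 and 0.694 CPM in shLuc and 0.626, 0.493 and 0.750 CPM in shWDR5. Here the groups overlapped, and the log2 fold change of -0.61 ± 0.24 (edgeR quasi-likelihood adjusted p = 0.0440) had the highest adjusted p of the 9 calls. The call was lost without shLuc replicate 1 (-0.55, adjusted p = 0.111) or 2 (-0.48, 0.153) and without shWDR5 replicate 1 (-0.62, 0.0768) or 2 (-0.45, 0.168), with DESeq2 (0.116) and with limma-voom (0.0582).

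HOXC11, whose span HOTAIR overlaps, had its shWDR5 libraries (8.35, 8.41 and 7.83 CPM) all below its controls (9.31, 9.85 and 8.48 CPM). With a log2 fold change of -0.17 (95% interval -0.35 to 0.02), HOXC11 was not called. HOXC8, HOXC4, HOXC5 and HOXC-AS1 gave log2 fold changes of 0.10, -0.06, -0.08 and 0.00, each with an interval across 0. HOXC4, HOXC5 and HOXC6 begin at the same annotated base and share 563 exonic bases, so their levels rest on the rest of each gene. The calls of HOXA7, HOXB6 and HOXC13-AS were kept in all 15 alternatives in which each was recomputed. Among the 15 was the call rule of the study, an absolute log2 fold change of at least 0.6 with more than 0.5 RPKM. HOXA7 was the closest to losing its call, with an edgeR quasi-likelihood adjusted p of 0.0472 without shLuc replicate 3. The highest for HOXB6 was 0.000494 and for HOXC13-AS 0.000292. HOXA7 also shares 1504 of its 2015 exonic bases with HOXA-AS3. The plot of the called members by library shows their values side by side.

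By cluster, the called members came to 13.3% of those tested in HOXA, 40.0% in HOXB and 45.5% in HOXC, beside 56.5% of all genes tested. The 15 tested HOXA members had 2 lower and 0 higher with a median log2 fold change of -0.08. The 5 tested HOXB members had 2 lower and 0 higher with a median of 0.05. The 11 tested HOXC members had 3 lower and 2 higher with a median of -0.06. These medians lay near that of all genes (-0.01), and the direction of those of HOXA and HOXB turned when a single library was left out. The HOXA median was 0.04 without shLuc replicate 3, 0.04 without shWDR5 replicate 2 and 0.01 without shWDR5 replicate 3. The HOXB median was -0.11 without shLuc replicate 3 and -0.20 without shWDR5 replicate 1. Along the clusters, no 2 adjacent tested members were both called: HOXA7 fell between HOXA6 and HOXA9, which were not called, and HOXC13-AS rose beside HOXC13, which was not.

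**Figure D2:**
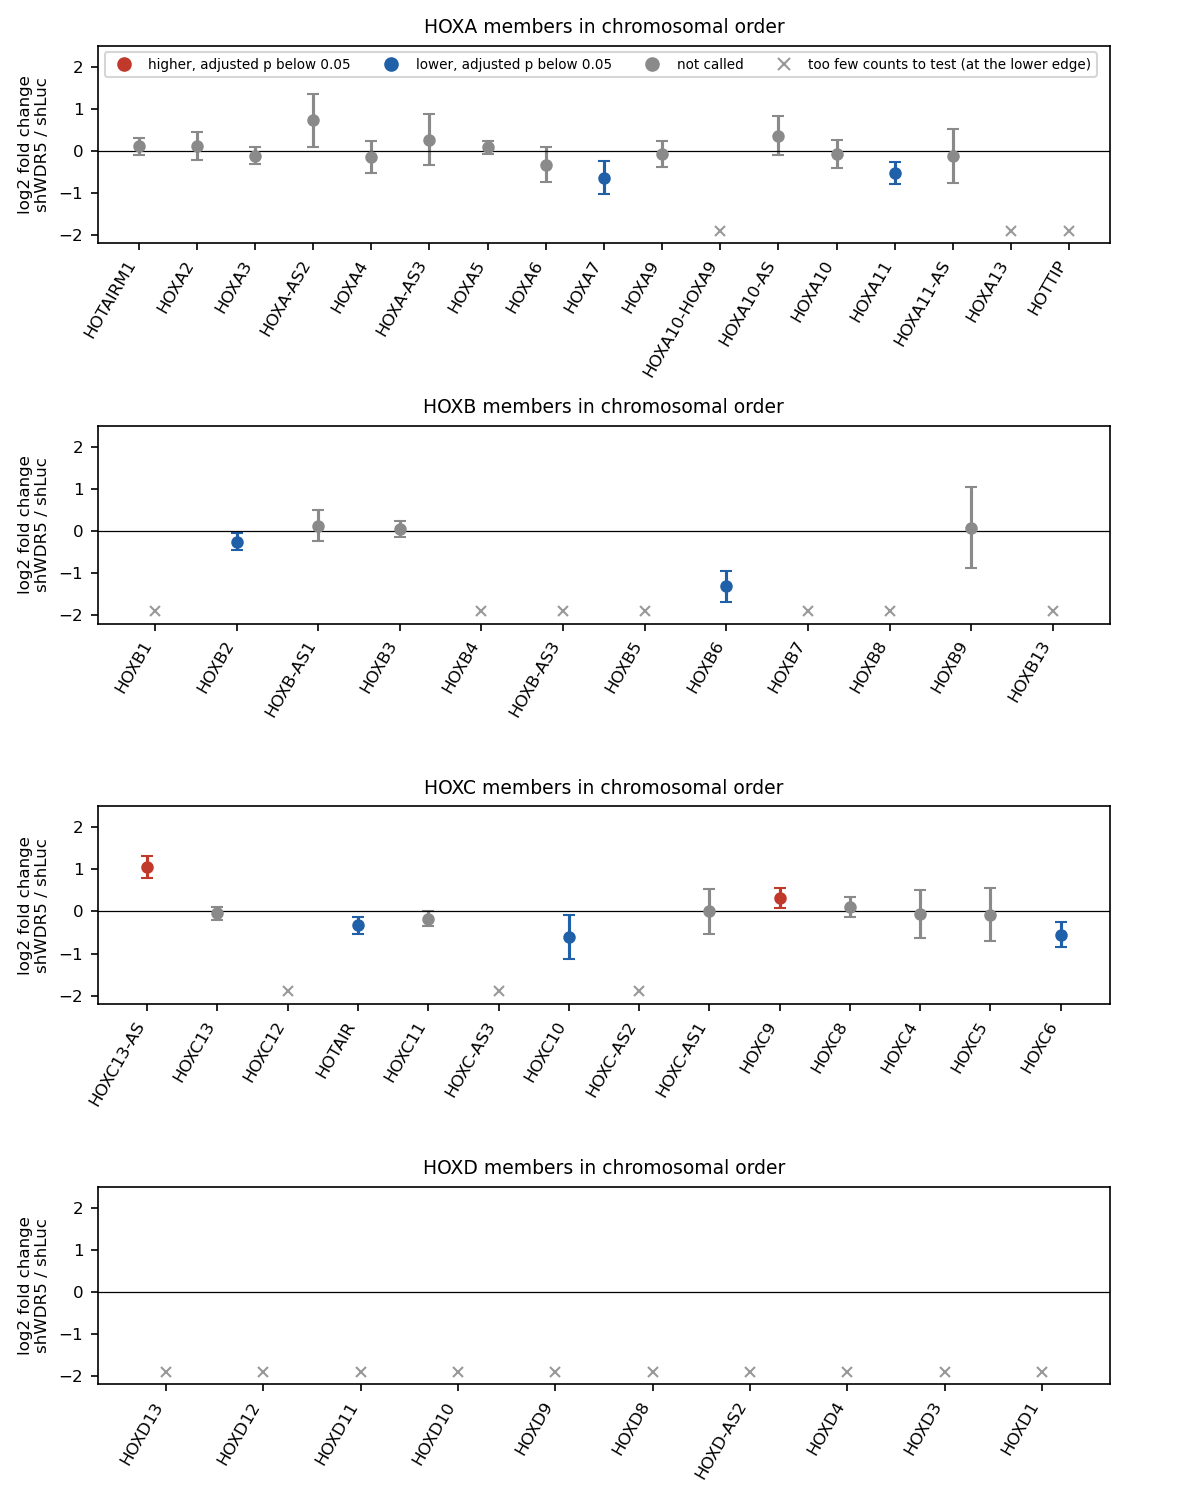
Log2 fold change of shWDR5 over shLuc (y axis) with 95% intervals (bars) for the members of each cluster in the order of their hg19 position (x axis, order only). Called members are red (higher) or blue (lower), grey points were not called, and crosses at the lower edge mark members with too few counts to test, among them all 10 of HOXD; 1 HOXA member is not shown.

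Paralogue number orders the 39 coding genes in the same way across clusters. Of the anterior genes (numbers 1 to 3), 5 of 8 were tested and 1 fell, with a median log2 fold change of 0.05. Of the central genes (4 to 8), 9 of 15 were tested and 3 fell, with a median of -0.14. Of the posterior genes (9 to 13), 8 of 16 were tested, with 2 lower, 1 higher and a median of -0.08. In the anterior, central and posterior genes alike, the share of tested genes called lay below the 56.5% of all genes tested. The paralogues numbered 6 were the only ones of which every member was tested and every member's groups lay apart, as they did in 62.3% of all genes tested. HOXB6 and HOXC6 fell, HOXA6 was not called, and their median was -0.55. Paralogue 9 went both ways, with HOXC9 higher and HOXA9 and HOXB9 not called. Paralogue 11 held HOXA11, which fell, and HOXC11, which was not called. These counts are small and describe the members only, and no test was made over them.

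**Figure D3:**
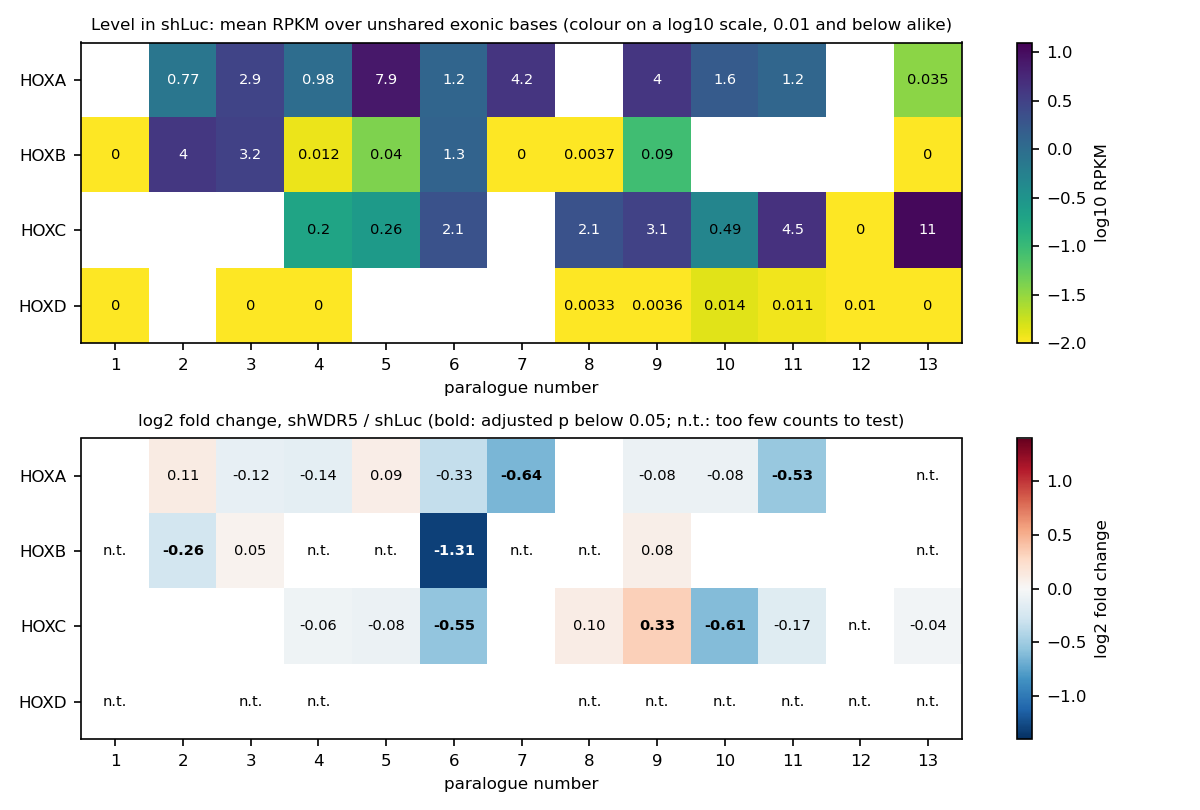
Coding HOX genes by cluster (rows) and paralogue number (columns). The upper grid gives the mean RPKM over unshared exonic bases in shLuc (n = 3, colour on a log10 scale) and the lower grid the log2 fold change, bold where called; the high levels run from HOXA5 (7.88) to HOXC13 (10.9), n.t. marks genes not tested, and a blank cell holds no gene or one not reported here.

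The levels were compared between genes only per length, as RPKM (CPM per kilobase of exon). Reads over bases shared by 2 genes appear to be missing from the deposited counts: all 385 genes that lie wholly inside same-strand exons of others and all 11 that lie wholly inside opposite-strand exons (of at least 200 bases) had no count, against 12.8% of the 19443 genes that share no base. The HOX clusters are dense, and 23 of the 54 members share exonic bases with another gene, so RPKM was also computed over unshared bases only. In shLuc, HOXC13 was first at 10.9 ± 0.41 RPKM (SD, n = 3), then HOXA5 at 7.88 ± 0.19 and HOTAIRM1, an RNA from the anterior end of HOXA known in myeloid cells, at 7.11 ± 0.41, and these did not overlap in range. HOXC11 (4.52 ± 0.34), HOXA7 (4.15 ± 0.88), HOXA9 (4.05 ± 0.69) and HOXB2 (4.01 ± 0.082) followed. Among these, each overlapped the next in range, and HOXB2 lay apart from HOTAIR, the member after it. In the whole order of 31 tested members, 22 of 30 neighbouring pairs overlapped in range. The length used mattered most for HOXA7 and HOXA9: 1504 of the 2015 exonic bases of HOXA7 are shared with HOXA-AS3 on the other strand and 1494 of the 2057 of HOXA9 with HOXA10-HOXA9, and over their full lengths they came to 1.05 and 1.11 RPKM, at ranks 19 and 17 in place of 5 and 6.

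Summed over each cluster on full lengths, HOXA gave 27.9 ± 1.1 RPKM in shLuc and 28.1 ± 0.88 in shWDR5, HOXC 29.2 ± 0.38 and 30.9 ± 1.8, and HOXB 9.63 ± 0.51 and 8.49 ± 0.37 (SD, n = 3). The HOXB sums did not overlap, at 9.29, 10.2 and 9.38 RPKM in shLuc and 8.29, 8.92 and 8.26 in shWDR5, with HOXB6 (1.16 against 0.462 RPKM) and HOXB2 (4.01 against 3.35 RPKM) lower and HOXB3 (2.93 against 3.03 RPKM) and HOXB-AS1 (1.39 against 1.50 RPKM) not called. HOXD was at the limit of counting, with totals of 1, 3 and 4 counts in the shLuc libraries and 1, 2 and 5 in the shWDR5 libraries over its 10 members. None of its genes reached more than 2 counts in a library, and HOXD1, HOXD3, HOXD4 and HOXD-AS2 had 0 in all 6. A count of 0 allows up to 3 counts, or 0.0528 to 0.0774 CPM depending on the library, so a change in HOXD was not detectable at this depth.

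The other members too low to test were in HOXB (7 members, at most 4 counts), HOXC (3, at most 4) and HOXA (3, at most 10). HOXB1, HOXB13 and HOXC12 had 0 counts in all libraries, as did HOXA10-HOXA9, all of whose exonic bases are also exon of HOXA9 or HOXA10 and whose 0 is therefore no measure of its level. HOXB4, HOXB5, HOXB7, HOXB8 and the antisense RNA HOXB-AS3, which surround HOXB6, had 1 to 14 counts each over the 6 libraries together. The antisense RNAs HOXC-AS2 and HOXC-AS3 had 7 and 13. HOXA13, the most posterior HOXA gene, had 4, 6 and 1 counts in shLuc and 5, 10 and 8 in shWDR5. HOTTIP, the WDR5-binding RNA beside it, had 2, 1 and 0 counts in shLuc and 0, 0 and 1 in shWDR5, so no statement on HOTTIP can be made from these libraries.

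Of the 14 antisense or intergenic RNAs, 9 were tested, and HOXC13-AS rose and HOTAIR fell. That is 22.2% of the RNAs tested, beside 56.5% of all genes tested. HOTAIRM1 gave 7.0, 7.87 and 7.39 CPM in shLuc and 7.19, 8.69 and 8.03 CPM in shWDR5, with overlapping ranges and a log2 fold change of 0.11 (95% interval -0.10 to 0.31). HOXA-AS2, which runs opposite to HOXA3 and HOXA4, gave 0.364, 0.413 and 0.372 CPM in shLuc and 0.389, 0.757 and 0.728 CPM in shWDR5. The first shWDR5 library lay within the control range, and the log2 fold change of 0.72 (0.09 to 1.35) had an adjusted p that rounds to 0.05 and lay above it in edgeR's quasi-likelihood test, while the likelihood ratio test, RLE factors, no filter on low counts and the fit without shWDR5 replicate 1 each called it. HOXA10-AS had all its shWDR5 libraries above its controls at a log2 fold change of 0.36 (-0.11 to 0.83), and HOXA-AS3 and HOXA11-AS were at 0.26 (-0.34 to 0.86) and -0.13 (-0.78 to 0.52), none of them called. The coding genes had a median log2 fold change of -0.08 (22 tested, 15 below 0) and the RNAs one of 0.13 (9 tested, 2 below 0), a difference that was not tested. Over all 16117 genes tested, 8217 lay below 0.

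The level of each RNA over that of its neighbouring coding gene was taken within each library, over unshared bases, for 13 pairs. In 4 the groups did not overlap. Taken singly, without a ratio, 62.3% of all genes tested had groups that lay apart, and no such share was computed for ratios. Some RNAs recur across the pairs, so the pairs are not independent. HOXC13-AS stood at 0.290 ± 0.029 of HOXC13 in shLuc and 0.616 ± 0.058 in shWDR5 (SD, n = 3). HOXA-AS2 went from 0.187 ± 0.014 to 0.328 ± 0.092 of HOXA3, and HOXB-AS1 from 0.532 ± 0.045 to 0.686 ± 0.033 of HOXB2, with HOXB2 the member of that pair that was called. HOXC-AS1 over HOXC9 went the other way, from 0.271 ± 0.027 to 0.215 ± 0.010, with a log2 fold change of 0.00 in the RNA and 0.33 in the gene. In the shLuc libraries HOXA-AS2 had only 18, 16 and 15 counts and HOXC-AS1 only 20, 17 and 21. The ratio of HOTAIR to HOXC11 was 0.711 ± 0.041 and 0.636 ± 0.080, and those of HOTAIRM1 to HOXA2 were 9.20 ± 0.39 and 9.26 ± 1.4, both overlapping. The library kit is not stated to keep strand. Reads over shared bases appear to be uncounted. All 11 genes wholly inside opposite-strand exons (of at least 200 bases) had no count, as counting without regard to strand would give. Counting thus appears to have ignored strand, and reads over the unshared bases of an RNA could then not be assigned to its strand. This holds for the levels and calls of these RNAs as well as for the ratios.

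**Figure D4:**
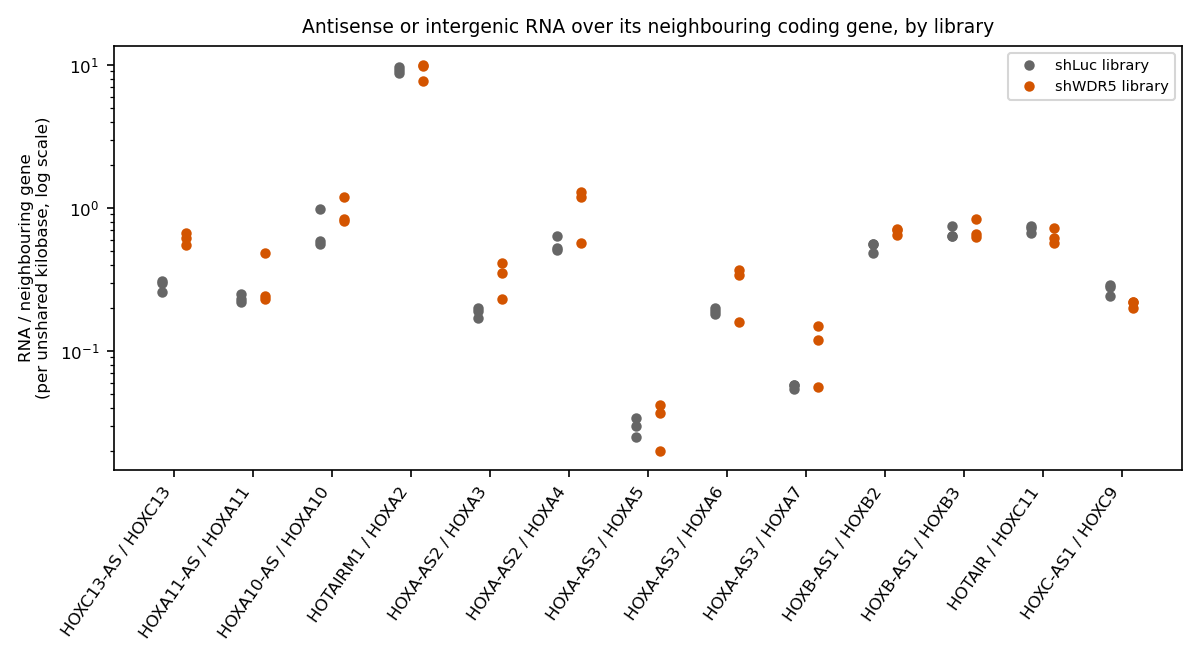
Level of each antisense or intergenic RNA over that of its neighbouring coding gene (y axis, log scale, per unshared kilobase) in each shLuc (grey) and shWDR5 library (orange) for the 13 pairs. The groups are apart in HOXC13-AS over HOXC13, HOXA-AS2 over HOXA3, HOXB-AS1 over HOXB2 and HOXC-AS1 over HOXC9.

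HOX proteins bind DNA with TALE homeodomain partners of the PBX, MEIS and PKNOX families, and all 9 of these genes were tested. PBX3, MEIS3, PKNOX1 and PKNOX2 rose, PBX2 and PBX4 fell, and the other 3 were not called, with a median log2 fold change of -0.04. That is 6 of 9, beside 56.5% of all genes tested. PBX2, the highest of them in CPM, gave 80.1, 79.1 and 77.9 CPM in shLuc and 56.0, 55.9 and 55.9 CPM in shWDR5 (log2 fold change -0.50 ± 0.05, edgeR quasi-likelihood adjusted p = 8.85e-06). PBX3 gave 22.0, 24.8 and 24.4 CPM against 27.7, 29.8 and 32.0 CPM (0.33 ± 0.08, edgeR adjusted p = 0.00292). These 2 partners of HOX proteins thus moved in opposite directions, with no overlap in either. PKNOX1 gave 19.0, 17.7 and 18.1 CPM against 22.5, 22.0 and 22.9 CPM (0.30 ± 0.07, edgeR adjusted p = 0.00250), and MEIS3 6.76, 7.74 and 6.20 CPM against 10.1, 8.92 and 8.93 CPM (0.43 ± 0.10, edgeR adjusted p = 0.00269). Both were higher in all shWDR5 libraries. PBX4 (0.971, 1.24 and 0.719 CPM against 0.540, 0.669 and 0.529 CPM, -0.73 ± 0.23, edgeR adjusted p = 0.0174) lost its call without shLuc replicate 2 (-0.56, adjusted p = 0.0782) and without shWDR5 replicate 3 (-0.67, adjusted p = 0.0510). PKNOX2 (0.668, 0.542 and 0.620 CPM against 0.907, 0.827 and 0.904 CPM, 0.51 ± 0.19, edgeR adjusted p = 0.0355) lost its call without shLuc replicate 2 (0.102) or 3 (0.0686) and without shWDR5 replicate 1 (0.0798), 2 (0.0514) or 3 (0.0811), with DESeq2 (0.141), with library totals only (0.0533) and with no filter on low counts (0.0603).

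The genes that flank the clusters were read beside them. Of 12, 7 were tested, of which CALCOCO1 rose and HIBADH, SMUG1, CBX5 and MTX2 fell, SKAP2 and KIAA1715 were not called, and the median was -0.20. That is 5 of 7, again beside 56.5% of all genes tested. HIBADH, a valine catabolism enzyme beyond the HOXA13 end of HOXA, gave 45.9, 51.4 and 49.8 CPM in shLuc and 37.0, 36.7 and 36.7 CPM in shWDR5 (log2 fold change -0.41 ± 0.06, edgeR adjusted p = 0.000144). SMUG1, a uracil-DNA glycosylase beyond the HOXC4 end, gave 18.1, 16.3 and 17.2 CPM against 10.8, 10.5 and 9.51 CPM (-0.75 ± 0.08, edgeR adjusted p = 8.92e-06). Both were lower in every shWDR5 library by more than any spread within a group. CBX5, which encodes heterochromatin protein HP1 alpha, gave 230, 255 and 243 CPM against 204, 214 and 216 CPM (-0.20 ± 0.06, edgeR adjusted p = 0.00988), and CALCOCO1, at the HOXC13 end, 35.0, 33.1 and 32.0 CPM against 42.9, 38.7 and 38.0 CPM (0.26 ± 0.07, edgeR adjusted p = 0.00756). MTX2, a mitochondrial import gene beside HOXD, gave 46.0, 42.7 and 49.8 CPM against 33.7, 35.0 and 32.8 CPM (-0.45 ± 0.07, edgeR adjusted p = 0.000173), so the flank of HOXD was well read where the cluster itself held at most 5 counts in a library. EVX1, EVX2, SKAP1, PRAC1 and TTLL6 were too low to test.

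Of 12 regulators of HOX transcription, 6 were tested, of which RARA rose, RARG, CYP26B1 and GMNN fell, CTCF and YY1 were not called, and the median was -0.17. That is 4 of 6, beside the same 56.5%. RARA and RARG are retinoic acid receptors, through which retinoic acid switches on anterior HOX genes. RARA gave 23.3, 23.4 and 22.3 CPM in shLuc and 43.0, 38.2 and 40.9 CPM in shWDR5 (log2 fold change 0.82 ± 0.07, edgeR adjusted p = 1.19e-06), and RARG 92.5, 87.9 and 81.2 CPM against 70.1, 65.2 and 63.2 CPM (-0.40 ± 0.07, edgeR adjusted p = 0.000295). The receptors thus moved in opposite directions, with all libraries apart. CYP26B1, which degrades retinoic acid, gave 21.2, 21.0 and 18.6 CPM against 16.3, 14.4 and 15.9 CPM (-0.39 ± 0.08, edgeR adjusted p = 0.00144). GMNN, the replication inhibitor geminin, which also binds HOX proteins, gave 38.4, 39.3 and 41.6 CPM against 23.3, 25.1 and 22.8 CPM (-0.74 ± 0.07, edgeR adjusted p = 2.50e-06). CDX1, CDX2 and CDX4, caudal-type activators of HOX genes, had 0 counts in all libraries, and RARB and CYP26A1 were too low to test.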

How the data were processed

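Poly-A RNA libraries (TruSeq) of MCF10DCIS.com cells, 3 shLuc and 3 shWDR5, were sequenced on a Illumina HiSeq. The authors deposited 1 table of raw counts per gene with gene positions on hg19 (GRCh37) and gene lengths. Per the submitters' processing notes the tools were TopHat2 2.1.0, featureCounts and edgeR 3.2.2; featureCounts settings, strand included, are not given in the sources used here. A second deposited table of the authors' edgeR comparison (fold changes, p-values, false discovery rates) was not used. All 6 count columns were used, and 0 columns of other samples were left unused.

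The counts were fitted in edgeR 4.0.16 (R 4.3.3): TMM factors, filterByExpr with a minimum count of 10, robust quasi-likelihood test on group, and Benjamini-Hochberg adjustment over 16117 genes, called below 0.05. The SE is the absolute log2 fold change over the square root of F, and intervals are 95%. RPKM used the TMM-scaled totals and the length in the table, or the exonic bases that no other gene shares. Counts range from 38218108 to 57640167 per library, and the limits for a count of 0 (3 counts) cover counting error only. The script was tested on simulated data. No 2 libraries of a group agreed within sampling noise (chi-square per degree of freedom 7.11 to 18.16).

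Members and gene lists were chosen with earlier results of these data known; names of the form HOXA-AS2 were read as within the rule. Some genes are not reported here by name, and enter the counts and medians only; every other tested member is named, with values per library for called members, the highest member of each cluster by RPKM, and called genes of the TALE, flanking and regulator lists. Alternatives were DESeq2 1.42.0, limma-voom (limma 3.58.1), edgeR's likelihood ratio test, RLE factors or library totals, other filters on low counts, a replicate block, each library left out, the call rule of the study, and unshared members or bases only.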

Additional observations from a re-analysis of the deposited data

How the results depend on the processing

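The direction of WDR5 and of all 9 called HOX members was kept under every alternative that tested them. With the call rule of the study, 1 HOX member was higher and 2 lower, with 1273 genes higher and 1684 lower over all genes. The TALE partners then had 0 higher and 1 lower, the flanking genes 0 and 1, and the regulators 1 and 1. Of the 13 tested members that share no exonic base, 1 was higher and 3 lower. That is 30.8% of them, beside 27.8% of the 18 tested members that share bases. With each library left out in turn, the HOX members called ranged from 1 to 2 higher and 5 to 6 lower, and the TALE partners called lower from 1 to 3. The stricter filter (1 CPM in 3 libraries) left 1 TALE partner lower and a central median of -0.33. Left-out medians ranged from -0.03 to 0.04 for HOXA, -0.20 to 0.03 for HOXB, -0.01 to 0.14 for anterior, -0.27 to -0.04 for central and -0.14 to -0.07 for posterior members. With library totals the HOXA and posterior medians were each -0.14, and the HOXC sum in shLuc was 29.8 RPKM. Over unshared bases, chosen after seeing the data, the sums in shLuc and shWDR5 were 35.8 and 35.0 RPKM for HOXA, 10.8 and 9.60 for HOXB and 31.1 and 32.9 for HOXC. With the replicate number as a block, 3 HOX members were higher (HOXA-AS2 added) and 7 lower. The block fit called 2 flanking genes and 2 regulators higher, and 4909 and 5521 genes higher and lower over all genes. Deviations from the group means correlated by 0.37, 0.04 and 0.12 in same-numbered libraries, and by 0.21 in shLuc 2 and shWDR5 3. Within a group of 3 libraries such deviations depend on each other, so the correlations cannot decide whether same-numbered libraries were paired. Depth limits the low members: without a filter on low counts 46 members were tested, and 3 were higher and 7 lower.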

Other observations

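The table also lists 12 genes that lie wholly within the spans of the 4 clusters and are not HOX members, and all 12 had 0 counts in all 6 libraries. They comprise the hairpins of MIR196B, MIR10A, MIR196A1, MIR3185, MIR196A2, MIR615, MIR10B and MIR7704, the HOXB-side genes PRAC1 and PRAC2, and the HOXD-side RNAs HAGLR and HAGLROS. Poly-A selection does not capture mature or hairpin miRNAs well, and the 0 of a gene whose exons lie inside those of another is no measure of its level, as with MIR196B and MIR7704.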
